A study of Bos taurus with 6 samples.

Results

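The insulin-like growth factor (IGF) system was followed through 10 of the 15212 genes named on a bovine oligonucleotide array. They were read from 12 of its 43794 probes, namely every probe that the platform's annotation assigns to IGF1, IGF2, IGF1R, IGF2R, IGFBP2, IGFBP3, IGFBP4, IGFBP5, IGFBP6 or PAPPA. IGF2 had 3 probes and the other 9 genes had 1 each, and each probe was followed on its own. The members and the other gene lists below were chosen with earlier results of these data known.

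RNA of 3 superstimulated beef cows was compared with RNA of 3 non-superstimulated beef cows on 6 two-colour arrays. In superstimulation, repeated gonadotropin doses keep numerous ovarian follicles growing together. The labels give multiparity and gonadotropins for both groups, the non-superstimulated one included, and name neither a tissue nor a cell type, so no labelled cell type could be checked. Superstimulated cow 1 was hybridised with non-superstimulated cow 1, and likewise for cows 2 and 3. Each pair was repeated on a second slide with the dyes exchanged, so that the 2 arrays of a pair are repeat measurements of the same extracts and n is 3 pairs. Slide and dye orientation cannot be told apart, since all arrays of one orientation lie on one slide.

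On slide 1 the superstimulated cow carries Cy5 in the array records, whereas the worked example of the design text gives it Cy3. Under the design text every sign below turns and, within each pair, the values of the 2 cows change places. All group names, ratios and the words higher and lower follow the array records.

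IGF1 and IGF2 are secreted ligands that signal through the tyrosine kinase receptor IGF1R. IGF2R takes up IGF2 and delivers it for breakdown. IGF-binding proteins hold the ligands in the extracellular space, and the protease PAPPA frees them by cutting IGFBP4. In the ovarian follicle IGFs act together with gonadotropins on cell growth and steroid synthesis, and in cattle the small binding proteins of follicular fluid decline as a follicle becomes dominant.

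Intensities are given after background correction with an offset of 50, loess within each array and equal average intensity between arrays. Values of different probes cannot be set against each other. A channel counts as above the controls where its foreground lay over the 95th percentile of that array's 756 negative controls. Median foreground was 152 to 299 in red and 161 to 283 in green over the 6 arrays, and 47.3% to 63.2% of probes were above the controls in red and 65.4% to 71.2% in green. Of the 12 IGF probes, 11 passed the filter (above the controls in at least 1 channel on at least 3 arrays), as did 31957 probes in all. IGFBP5 did not.

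IGF2 was the member that varied most between the cows. On probe EMBV3_37311 superstimulated cow 3 had intensities of 37000 on slide 1 and 32200 on slide 2, against 1560 and 3800 in non-superstimulated cow 3. Superstimulated cow 2 had 4030 and 4780, against 1060 and 1010 in non-superstimulated cow 2. Superstimulated cow 1 had 2020 and 2160, against 2100 and 1700 in non-superstimulated cow 1. Cow 3 of the superstimulated group thus stood above all other cows, and cow 2 of that group was next. The levels of non-superstimulated cow 3, superstimulated cow 1 and non-superstimulated cow 1 overlapped between their repeat arrays, and non-superstimulated cow 2 was lowest. The raw foreground of superstimulated cow 3 reached 34550, near the highest foreground of any probe on these arrays (39126 to 41568), and how far the scanner's upper end limits this value was not tested.

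On the second IGF2 probe, EMBV3_41040, superstimulated cow 3 was again the highest. Superstimulated cow 3 had 2380 and 2850, against 117 and 449 in non-superstimulated cow 3, which was not above the controls on slide 1. Superstimulated cow 2 had 363 and 350, against 98.0 and 113 in non-superstimulated cow 2, which was not above the controls on either slide. Superstimulated cow 1 had 133 and 146, against 189 and 171 in non-superstimulated cow 1. On slide 2 non-superstimulated cow 3 lay above superstimulated cow 2, unlike on EMBV3_37311. In pair 1 EMBV3_41040 was slightly dimmer in the superstimulated cow on both slides, while EMBV3_37311 differed in sign between the slides.

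The third IGF2 probe, EMBV3_16283, lay at the level of the controls in every cow. Its intensities were 101 to 122 in superstimulated cows and 88.3 to 127 in non-superstimulated cows, and it was above the controls in 0 of 6 red and 5 of 6 green channels. Over the 6 arrays the log2 ratios of EMBV3_37311 and EMBV3_41040 differed by a root mean square of 0.43, against 2.51 and 2.30 between each of them and EMBV3_16283. RefSeq lists 8 transcripts of IGF2 in cattle, and where on them each probe lies was not analysed here.

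**Figure D1:**
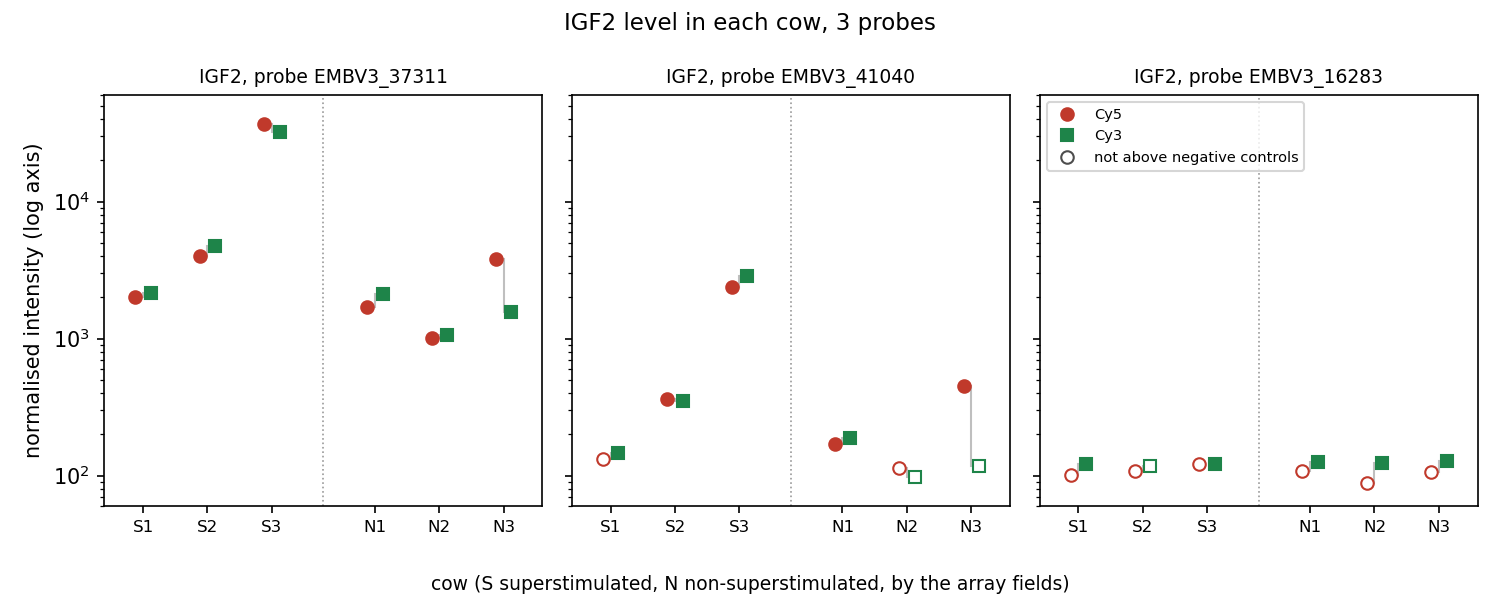
Normalised intensity (log axis) of the 3 IGF2 probes in each cow; each cow has a Cy5 and a Cy3 measurement on different slides, joined by a grey line, and open symbols were not above the negative controls. Superstimulated cow 3 (S3) stands highest on EMBV3_37311 and EMBV3_41040, and all cows lie between 88.3 and 127 on EMBV3_16283.

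The log2 ratio of superstimulated over non-superstimulated on EMBV3_37311 was 0.14, 2.08 and 3.83 in pairs 1, 2 and 3, each with a standard error of 0.30 from the dye swap. The ratios of pairs 2 and 3 correspond to 4.23-fold and 14.2-fold, and both passed limma's test against the swap error (adjusted p = 0.0022 and 0.00013), while pair 1 did not (adjusted p = 0.89). EMBV3_41040 had -0.37, 1.76 and 3.51 with a standard error of 0.29. Its ratios of pairs 2 and 3 correspond to 3.39-fold and 11.4-fold (adjusted p = 0.0038 and 0.00015 by limma). Both arrays of pair 2 and the slide 1 array of pair 3 were read against a channel not above the controls, so these folds are inexact. Without background correction the log2 ratios of pairs 2 and 3 were 1.41 and 2.94. These p-values set the ratio of 1 pair of extracts against a swap error that is pooled over all pairs. On both probes the arrays of pair 3 lay further apart than those of pairs 1 and 2, so the pooled error is not the repeatability of pair 3 alone. The p-values say nothing of other cows. A difference in a tissue extract can come from RNA per cell or from the share of cells that make it, and these cannot be told apart here.

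Over the 3 pairs the mean log2 ratio of EMBV3_37311 was 2.02 ± 1.84 (SD, n = 3 pairs), with a 95% interval of -2.56 to 6.59. EMBV3_41040 had 1.63 ± 1.94 and EMBV3_16283 had 0.03 ± 0.09. None passed limma's test across all probes (adjusted p = 0.999 each). On slide 1 alone the mean was 2.15 for EMBV3_37311 and 1.91 for EMBV3_41040, and on slide 2 alone it was 1.89 and 1.36. Without pair 3 the means were 1.11 and 0.70, and without pair 1 they were 2.95 and 2.64. The SD over pairs was near the mean on EMBV3_37311 and above it on EMBV3_41040, and the levels of the 3 superstimulated cows overlapped those of the 3 non-superstimulated cows.

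IGF1, the second ligand, was near the controls. Its log2 ratio was -0.02, -0.06 and -0.04 in pairs 1, 2 and 3, a mean of -0.04 ± 0.02 (SD, n = 3 pairs). Intensities were 104 to 150 in superstimulated cows and 114 to 140 in non-superstimulated cows. All 6 green channels and 1 of 6 red channels were above the controls, and the ratio was negative on the 3 arrays of slide 1 and positive on the 3 of slide 2. The ratio followed the dye orientation or the slide, which cannot be told apart, rather than the group (dye part -0.20 on the log2 scale, adjusted p = 0.037 by limma). IGF1 transcript differences of the size seen for IGF2 were not present in the signal of this probe, and whether the probe can report IGF1 in these samples was not tested.

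IGF1R, the signalling receptor, was the only IGF probe with 1 sign on all 6 arrays, which 5.50% of all tested probes showed. Superstimulated cows 1, 2 and 3 had 228 and 253, 286 and 282, and 172 and 186. Non-superstimulated cows 1, 2 and 3 had 200 and 225, 209 and 185, and 159 and 125. Within each pair the superstimulated cow was the brighter one, but superstimulated cow 3 lay below non-superstimulated cows 1 and 2, so the groups overlapped. The log2 ratio was 0.18, 0.53 and 0.35, a mean of 0.35 ± 0.18 (SD, n = 3 pairs) with a 95% interval of -0.08 to 0.79. By limma this had an unadjusted p of 0.034 and an adjusted p of 0.999. Against the swap error the ratio passed in pairs 2 and 3 (adjusted p = 0.0092 and 0.039), and the 3 pairs did not differ from each other by the test (adjusted p = 0.24). On slide 2 non-superstimulated cow 3 was not above the controls, and the pair 3 log2 ratio was 0.58 there, against 0.11 on slide 1. In the authors' deposited values the ratio of pair 3 was -0.0013. Slide 2 was there negative in pairs 1 and 3 (-0.05 and -0.26), and pair 2 did not pass (adjusted p = 0.29 by limma against the swap error).

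IGF2R, the uptake receptor of IGF2, was above the controls in every channel. Superstimulated cows 1, 2 and 3 had 515 and 437, 485 and 501, and 695 and 625, against 666 and 598, 461 and 494, and 754 and 828 in non-superstimulated cows 1, 2 and 3. The superstimulated cow was the dimmer one in pairs 1 and 3 on both slides and about level with its partner in pair 2. The log2 ratio was -0.41, 0.05 and -0.26, a mean of -0.21 ± 0.23 (SD, n = 3 pairs, adjusted p = 0.999 by limma). Pair 1 passed against the swap error (adjusted p = 0.041). In pair 3, where IGF2 was 14.2-fold higher in the superstimulated cow, IGF2R differed by 1.20-fold in the other direction and did not pass (adjusted p = 0.056).

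**Figure D2:**
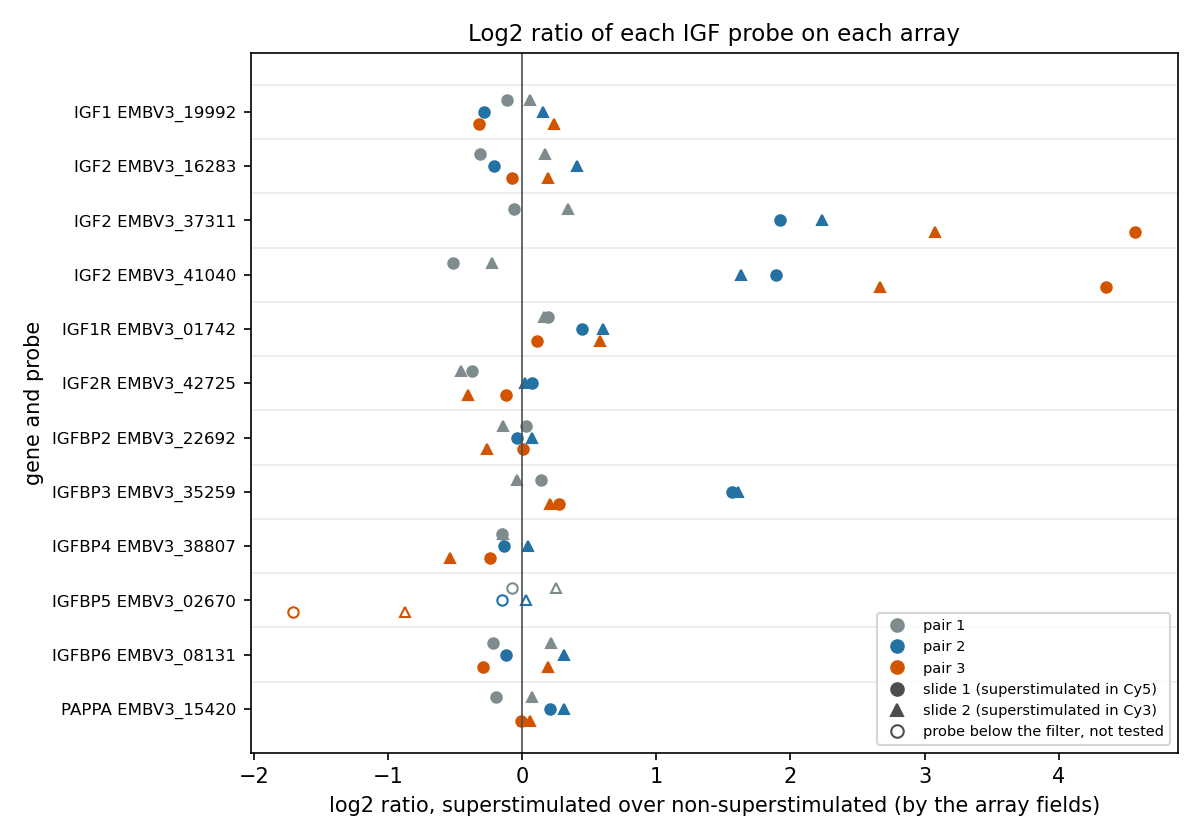
Log2 ratio of superstimulated over non-superstimulated (array records' dyes) of each of the 12 IGF probes on each array, with pairs in colour and slides by symbol. EMBV3_37311 and EMBV3_41040 of IGF2 are at 1.63 or more in pairs 2 and 3. IGFBP3 is at 1.56 and 1.61 in pair 2, and IGFBP5 at -1.71 and -0.88 in pair 3. The remaining points lie between -0.54 (IGFBP4) and 0.61 (IGF1R).

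Among the binding proteins, IGFBP3 was raised in 1 cow. IGFBP3 is the main IGF carrier of serum. Superstimulated cow 2 had intensities of 362 and 395, against 122 and 129 in non-superstimulated cow 2. The other superstimulated cows had 121 to 164 and the other non-superstimulated cows 124 to 136. The log2 ratio in pair 2 was 1.59 with a standard error of 0.09 from the dye swap, or 3.01-fold (adjusted p = 2.7e-05 by limma). Without background correction the pair 2 log2 ratio was 1.30, and with an offset of 16 it was 1.91, so this fold is inexact. In the main values the log2 ratio was 0.05 in pair 1 and 0.24 in pair 3, neither of which passed (adjusted p = 0.85 and 0.065). The pairs differed from each other (adjusted p = 0.00019). Over the 3 pairs the mean was 0.63 ± 0.84 (SD, n = 3 pairs, adjusted p = 0.999), and without pair 2 it was 0.15. The cow with the highest IGFBP3 was thus not the cow with the highest IGF2.

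IGFBP5, a binding protein that also associates with extracellular matrix, was above the controls in a single cow, non-superstimulated cow 3. Superstimulated cow 3 had 80.5 and 88.8, against 263 and 163 in non-superstimulated cow 3. The other 4 cows, of both groups, had 79.9 to 99.7. None of the cows other than non-superstimulated cow 3 was above the controls on either slide. In pair 3 the log2 ratio was -1.71 on slide 1 and -0.88 on slide 2, on average 2.45-fold lower in superstimulated cow 3. It was read against channels not above the controls, so this fold is inexact. Without background correction the pair 3 log2 ratio was -0.80. The probe was not tested with the others because it missed the filter. With all 43753 probes tested, its pair 3 ratio had an adjusted p of 0.00016 by limma against the swap error. In the authors' deposited values the pair 3 ratios were -1.76 and -0.18 on slides 1 and 2.

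IGFBP2 is encoded next to IGFBP5 in the cattle genome, per RefSeq. In pair 3 its log2 ratio was -0.13 (adjusted p = 0.36), and its intensities over all cows were 128 to 145 in superstimulated and 126 to 171 in non-superstimulated cows. IGFBP4, the binding protein that PAPPA cuts, was above the controls in every channel. Its intensities were 152 to 175 in superstimulated cows and 169 to 243 in non-superstimulated cows. The superstimulated cow was dimmer on 5 of 6 arrays, and the log2 ratio was -0.15, -0.05 and -0.39 in pairs 1, 2 and 3, a mean of -0.19 ± 0.18 (SD, n = 3 pairs, adjusted p = 0.999). Pair 3 passed against the swap error (adjusted p = 0.024). IGFBP6, which prefers IGF2 as its ligand, had 110 to 139 in superstimulated and 106 to 136 in non-superstimulated cows, with 0 of 6 red channels above the controls. Its mean log2 ratio was 0.01 ± 0.07, with the sign of the slide on every array (dye part -0.22, adjusted p = 0.014).

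The protease PAPPA was dim in most channels. Superstimulated cow 2 had 139 and 180, against 120 and 145 in non-superstimulated cow 2, and both cows were above the controls on both slides. The other superstimulated cows had 113 to 129 and the other non-superstimulated cows 116 to 129. The log2 ratio was -0.06, 0.26 and 0.02 in pairs 1, 2 and 3, a mean of 0.08 ± 0.17 (SD, n = 3 pairs, adjusted p = 0.999). Pair 2 did not pass against the swap error (adjusted p = 0.066).

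**Figure D3:**
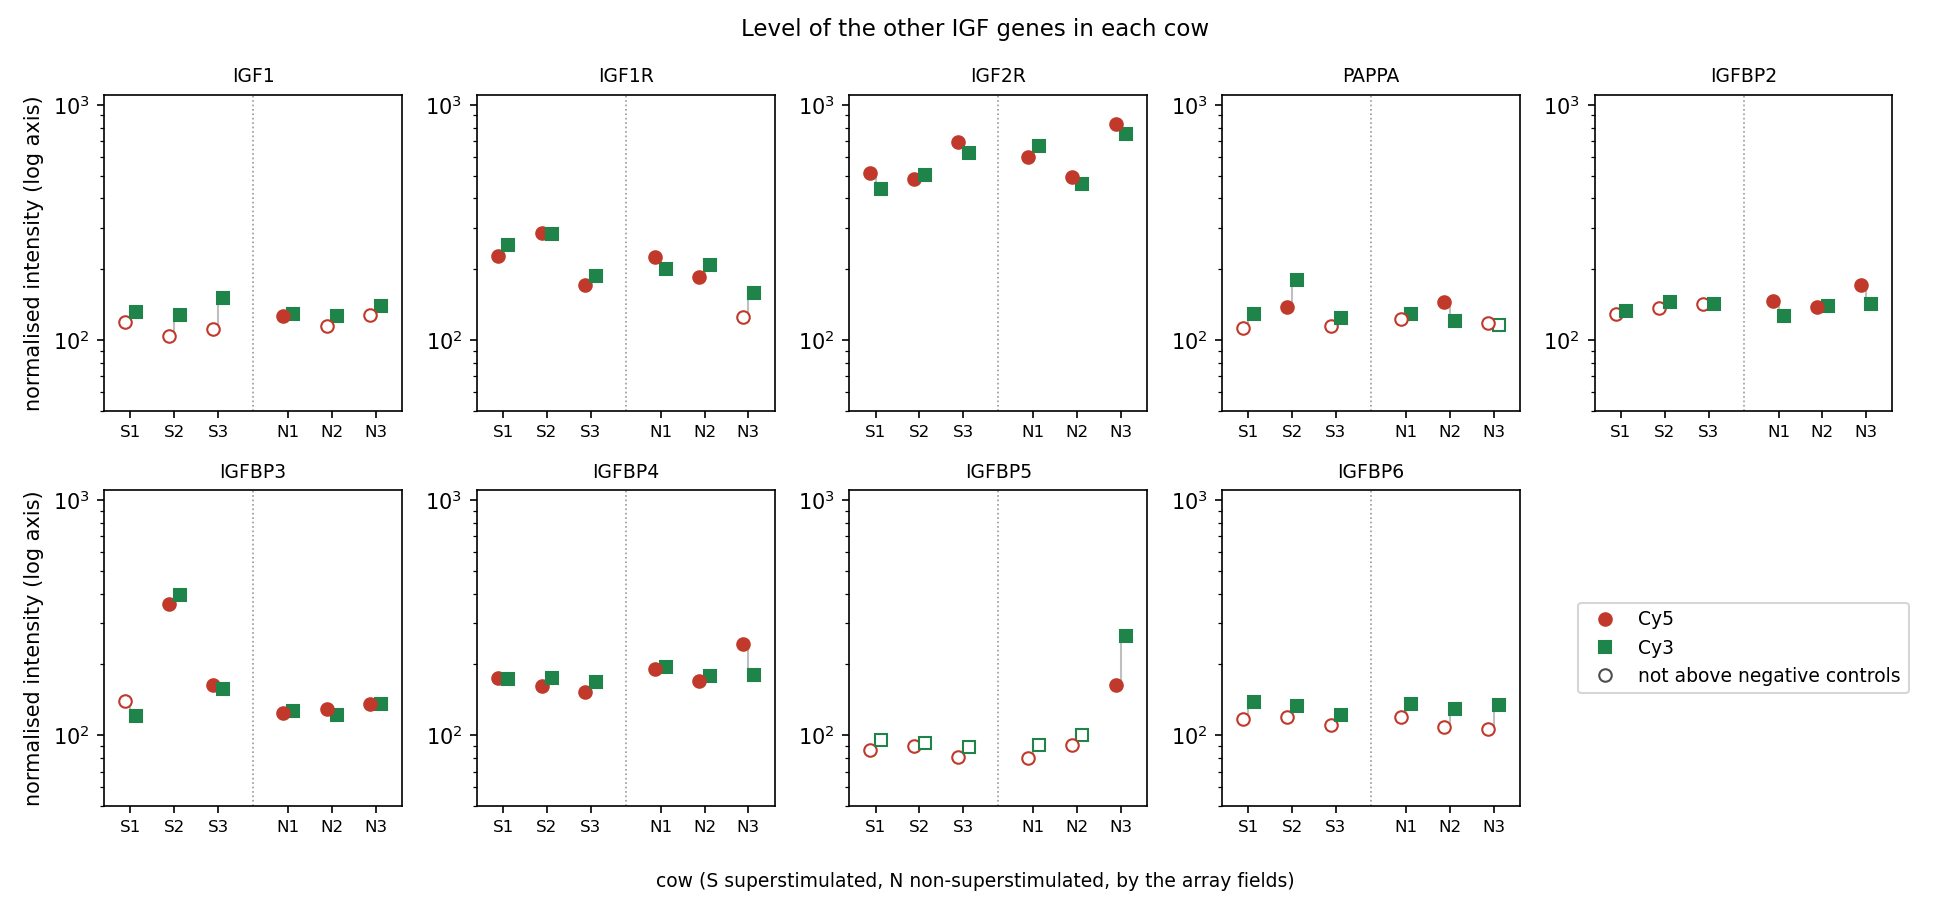
Normalised intensity (log axis) of the 9 other IGF genes in each cow, with symbols as in the plot of IGF2 levels. IGFBP3 stands out in superstimulated cow 2 (362 and 395) and IGFBP5 in non-superstimulated cow 3 (263 and 163), while IGF1 and IGFBP6 lie near the negative controls.

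Across the 11 tested IGF probes, 0 passed limma's test of the group ratio at an adjusted p of 0.05, as did 0% of all probes. At an unadjusted p under 0.05 it was 1 of 11, IGF1R, against 3.25% of all probes. The ratio differed between pairs for 3 of 11 (EMBV3_37311 and EMBV3_41040 of IGF2, and IGFBP3), against 40.3% of all probes. Single pairs gave 1 of 11 in pair 1 (6.92% of all probes), 4 of 11 in pair 2 (27.4%) and 4 of 11 in pair 3 (37.5%). By direction these were 0 higher and 1 lower in pair 1, against 2.65% and 4.27% of all probes, 4 higher and 0 lower in pair 2 (12.5% and 14.9%), and 3 higher and 1 lower in pair 3 (21.4% and 16.1%). The counts in pairs 1 and 3 lie near the share of all probes. The number of IGF probes that differ between pairs is also no higher than the share of all probes. The range over pairs on the log2 scale was 3.68 for IGF2 probe EMBV3_37311 and 3.88 for EMBV3_41040. These lay at the 99.0th and 99.1st percentile of the tested probes, whose median range was 0.38. The range of EMBV3_41040 rests in part on channels not above the controls. IGFBP3, with 1.54, was at the 90.0th percentile, and IGF1, with 0.04, at the 1.72nd. A range of at least 2 was found for 2 of 11, against 5.24% of all probes.

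The sign was the same in all 3 pairs for 5 of 11 IGF probes (IGF1, EMBV3_37311, IGF1R, IGFBP3 and IGFBP4), against 22.4% of all probes. For 0 of 11 did the levels of the superstimulated cows not overlap those of the non-superstimulated cows, against 5.35% of all probes. Signal was above the controls in all 12 channels for 3 of 11 (EMBV3_37311, IGF2R and IGFBP4), against 49.7% of all probes, so most IGF probes were dim. A dye part passed for 3 of 11 (IGF1, EMBV3_16283 and IGFBP6), against 35.1% of all probes, and all 3 were brighter in green, against 20.0%. IGFBP3 no longer differed between pairs without pair 2 (adjusted p = 0.39, 2 of 11 IGF probes called, against 30.6% of all). Without pair 3 the probes that differed were 6 of 11 (33.2% of all), with IGF1R, IGF2R and PAPPA added to EMBV3_37311, EMBV3_41040 and IGFBP3.

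Other genes of the pathway were read by their brightest probe from 4 lists of 48 genes, of which 36 were tested. None passed for the group ratio (0 of 36, against 0% of all genes, and 2 at an unadjusted p under 0.05, against 4.27% of all genes), and 18 of 36 differed between pairs, against 49.3% of all genes. The calls within pairs were 2 higher and 4 lower in pair 1 (3.25% and 5.83% of all genes), 4 and 8 in pair 2 (13.3% and 21.2%) and 9 and 11 in pair 3 (26.5% and 18.9%). The pathway as a whole therefore varied between pairs about as often as other genes did.

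Of 5 tested genes for IGF binding and the cutting of binding proteins, 4 differed between pairs, against 49.3% of all genes. The list's median log2 ratio was 0.15, -0.11 and -0.14 in pairs 1, 2 and 3 (all genes -0.01, -0.02 and -0.01). STC1, a secreted inhibitor of PAPPA, had 0.15, 2.47 and 0.31 and was positive on 6 of 6 arrays. Its highest level, 989, was in superstimulated cow 2, against 179 in non-superstimulated cow 2, and it was the same cow that stood out for IGFBP3. IGFBP7, a low-affinity relative of the binding proteins, had 0.17, -1.21 and -0.83, the lysosomal protease CTSD 0.15, -1.10 and -0.68, and the serine protease HTRA1 -1.10, 0.62 and 0.63. Over the 3 pairs STC1 had a mean of 0.98 ± 1.29 (0.23 without pair 2), IGFBP7 -0.62 ± 0.71, CTSD -0.54 ± 0.64 and HTRA1 0.05 ± 1.00 (SD, n = 3 pairs).

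The insulin receptor and its adapters had 6 of 8 tested genes that differed between pairs, against 49.3% of all genes, with medians of -0.01, -0.02 and -0.16. GRB14, which binds and restrains activated insulin and IGF receptors, was negative on 6 of 6 arrays with -0.73, -1.51 and -0.47, a mean of -0.90 ± 0.54 (SD, n = 3 pairs, unadjusted p = 0.030, adjusted p = 0.999 by limma). A dimmer GRB14 probe had a mean of -0.15 and was positive in pair 3. GAB1, a docking protein of receptor tyrosine kinases, had -0.15, -2.18 and -0.56 and was likewise negative on all 6 arrays, although a second tested probe had 0.28 in pair 1. GRB2, the adapter that links receptors to RAS, had 0.09, 0.33 and 0.71, and its dimmer probe a mean of 0.05.

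Downstream, 8 of 19 tested genes of the PI3K, AKT, mTOR and FOXO branch differed between pairs, against 49.3% of all genes, with medians of -0.08, 0.01 and -0.09. FOXO1, the transcription factor that AKT excludes from the nucleus, had the largest range of these, 0.77, -1.33 and -2.68. Its level was 186 in superstimulated cow 3, against 1190 in non-superstimulated cow 3, the pair with the largest IGF2 ratio. DDIT4, an inhibitor of mTOR signalling, had -0.98, 1.21 and 0.80, and RHEB, the GTPase that activates mTOR, -0.11, 1.41 and 1.19. RICTOR, a subunit of the second mTOR complex, had -0.61, -0.59 and -0.11 (mean -0.44 ± 0.28, unadjusted p = 0.045, adjusted p = 0.999 by limma), and TSC2 had -0.20, -0.10 and -0.45. Of the 4 tested genes in the last list, 0 differed between pairs, against 49.3% of all genes. There IGF2BP2 had a mean of -0.08 ± 0.12, GHR, the growth hormone receptor, 0.06 ± 0.09 and IGF2BP1 0.03 ± 0.08.

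**Figure D4:**
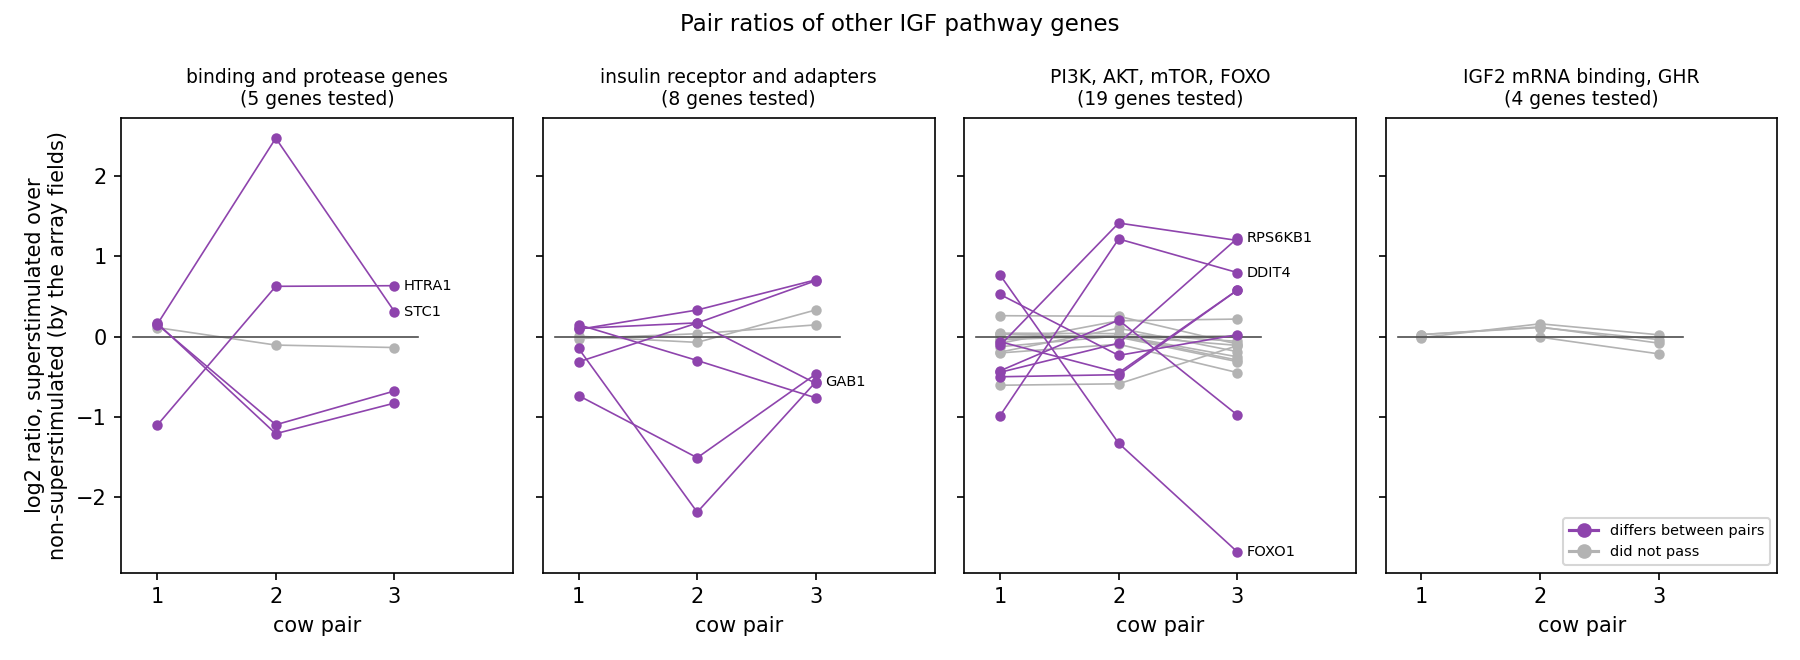
Log2 ratio of superstimulated over non-superstimulated (array records' dyes) in each cow pair for the tested genes of 4 other IGF pathway lists; a line joins the values of 1 gene, and purple marks genes whose ratio differed between pairs. STC1 reaches 2.47 in pair 2 and FOXO1 -2.68 in pair 3, and all values of the last list lie near 0.

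The genes with array ratios most like those of IGF2 were TM4SF1, TIMP2, CDC42SE2, LYSMD2 and NT5E. Likeness was the root mean square difference of the log2 ratios over the 6 arrays from EMBV3_41040, the IGF2 probe with the largest range, among 12329 genes. Non-superstimulated channels of that probe were at the controls in pair 2 and on slide 1 of pair 3, so the distances describe the printed ratios and not exact folds. The difference was 0.40 for TM4SF1, a cell surface protein, 0.47 for TIMP2, an inhibitor of metalloproteinases, 0.49 for CDC42SE2, 0.50 for LYSMD2 and 0.56 for NT5E, the ectoenzyme that makes adenosine. TIMP2 had -0.11, 1.98 and 3.65 in pairs 1, 2 and 3, and TM4SF1 -0.05, 1.46 and 3.21. Some other probes of these genes had smaller ratios, with 0.54 and 1.53 in pairs 2 and 3 for TM4SF1 probe EMBV3_41258 and 0.19 and 1.42 for CDC42SE2 probe EMBV3_08627. Others were similar in size, as TM4SF1 probe EMBV3_30808 had 1.47 and 3.01, and CDC42SE2 probe EMBV3_28831 had 2.37 and 3.41. Measured from EMBV3_37311 instead, a choice made after seeing the data, 3 of the 5 genes were again among the nearest 5 (TIMP2, TM4SF1 and CDC42SE2), with FN1 (0.48) and MPC1 (0.57) nearest.

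TM4SF1 was 2570 in superstimulated cow 3, against 277 in non-superstimulated cow 3, and no other cow exceeded 660. TIMP2 was 34500 in superstimulated cow 3 and 37100 in superstimulated cow 2, against 2750 in non-superstimulated cow 3 and 9410 in non-superstimulated cow 2. Both superstimulated values of TIMP2 lie in the range of the brightest IGF2 signal, and the scanner's limit was not tested there either.

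**Figure D5:**
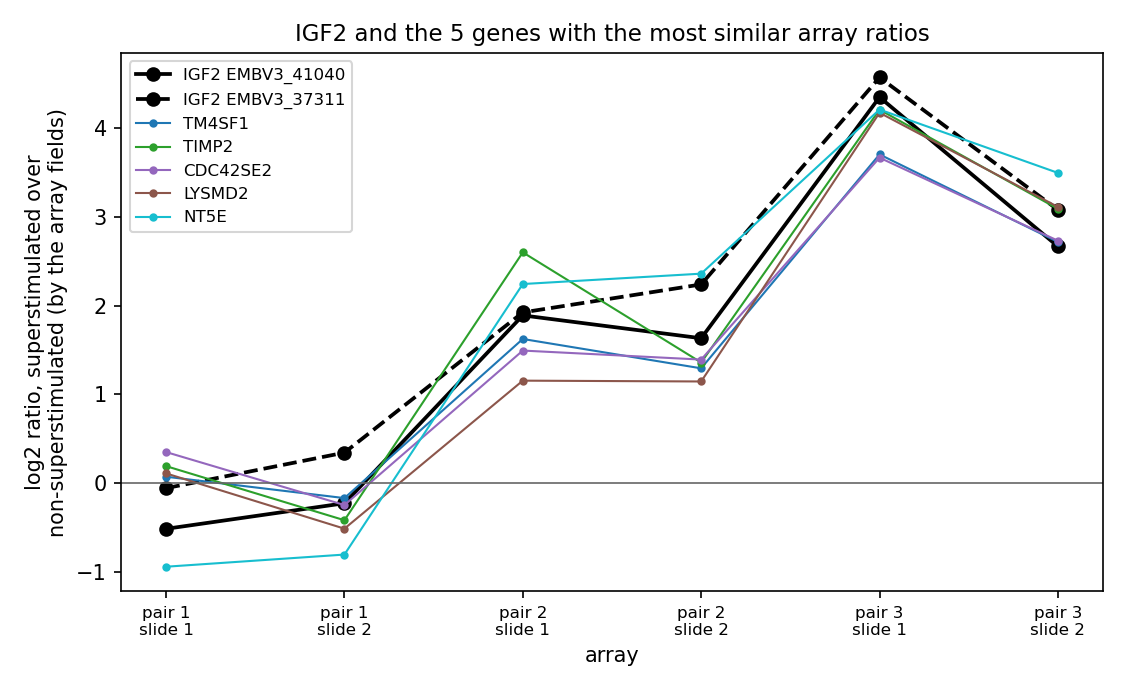
Log2 ratio of superstimulated over non-superstimulated (array records' dyes) on each array for IGF2 probes EMBV3_37311 and EMBV3_41040 (black) and the 5 genes with the most similar ratios. The lowest and highest ratios are 1.15 (LYSMD2) and 2.60 (TIMP2) in pair 2 and 2.67 (EMBV3_41040) and 4.57 (EMBV3_37311) in pair 3, and EMBV3_41040 and NT5E lie below 0 in pair 1.

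Markers of cell types that an ovarian sample could hold also moved between cows, but 1 or a few genes carried most of each summed intensity. Of 15 theca and stroma markers, all tested, the sum was 14800, 29400 and 28600 in superstimulated cows 1, 2 and 3 and 15200, 6530 and 10500 in non-superstimulated cows 1, 2 and 3. Most of the excess in superstimulated cows 2 and 3 was LUM, a stromal proteoglycan, at 25100 and 20500, against 1540 and 987 in their partners. By limma against the swap error, 3 of the 15 passed as higher and 5 as lower in pair 2 (13.3% and 21.2% of all genes). In pair 3, 4 passed as higher and 3 as lower (26.5% and 18.9% of all genes), so the list did not move as one. In pair 2 PDGFRA was 846 in superstimulated cow 2, against 264 in non-superstimulated cow 2, while ACTA2 was 926 against 2540 and NR2F2 148 against 233 in the same cows. In pair 3 COL3A1 was 1690 in superstimulated cow 3, against 197 in non-superstimulated cow 3, while PDGFRA had a log2 ratio of -1.11.

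Of the defining theca genes, CYP17A1 stayed near the controls in all cows (107 to 138 in superstimulated, 113 to 131 in non-superstimulated cows). INSL3 was above the controls in every channel, at 137 to 155 in superstimulated and 147 to 172 in non-superstimulated cows. Of the smooth muscle genes, MYH11 was 160 in superstimulated cow 3, against 3040 in non-superstimulated cow 3, the cow with the IGFBP5 signal, and at most 228 in the others. The other 2 did not follow it in pair 3, with ACTA2 at 3240 in superstimulated cow 3, against 3120 in non-superstimulated cow 3, and TAGLN at 121 against 118.

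Granulosa markers (11 of 12 tested, 9 of them above the controls in every channel) summed to 129000, 101000 and 110000 in superstimulated and 105000, 112000 and 85700 in non-superstimulated cows 1, 2 and 3, and most of each sum was INHA, INHBA and SERPINE2. Of the 11 tested, 2 passed as higher and 5 as lower in pair 2 by limma against the swap error (13.3% and 21.2% of all genes). In pair 3, 5 passed as higher and 3 as lower (26.5% and 18.9% of all genes). GATM had the largest range over pairs in this list. It was 754 in superstimulated cow 3, against 9610 in non-superstimulated cow 3, the cow with the IGFBP5 signal. The other 4 cows had 119 to 239. FSHR, the receptor for follicle-stimulating hormone, was negative on 6 of 6 arrays, with log2 ratios of -0.18, -0.72 and -0.67 in pairs 1, 2 and 3. CYP19A1, the aromatase that makes oestradiol, was low in both cows of pair 3, at 332 in superstimulated cow 3 and 234 in non-superstimulated cow 3, with 1480 to 5350 in the other 4 cows.

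Leukocyte markers (6 of 10 tested) summed to 3110 to 3570 in superstimulated and 2800 to 6540 in non-superstimulated cows. The highest sum, in non-superstimulated cow 3, was mostly PTPRC, at 2930 in superstimulated cow 3, against 5940 in non-superstimulated cow 3, while CD3E was 151 against 148 and AIF1 137 against 110. Endothelial markers (7 of 10 tested, 0 above the controls in every channel) summed to 961 to 995 and 946 to 1040, and red cell markers (5 of 6 tested) to 631 to 723 and 657 to 734.

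Epithelial markers (5 of 7 tested) summed to 687, 7630 and 3490 in superstimulated cows 1, 2 and 3 and 718, 648 and 3520 in non-superstimulated cows 1, 2 and 3. KRT8 carried the high sums, at 6780 in superstimulated cow 2, the cow with the IGFBP3 signal, against 180 in non-superstimulated cow 2. It was also 2940 in superstimulated cow 3 and 2980 in non-superstimulated cow 3, which had no such IGFBP3 signal. In pair 2 KRT18 was 495 against 111, whereas KRT7, KRT19 and EPCAM did not pass (adjusted p = 0.81, 0.89 and 0.76 by limma against the swap error).

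Oocyte and cumulus markers (8 of 10 tested) summed to 2600, 42100 and 41400 in superstimulated cows 1, 2 and 3 and 28700, 3860 and 2460 in non-superstimulated cows 1, 2 and 3. Nearly all of the high sums was TNFAIP6, a cumulus matrix gene, at 40800 and 35900 in superstimulated cows 2 and 3, in the range of the brightest IGF2 signal. The oocyte genes BMP15 and ZP3 stayed between 134 and 163 in all cows. ZP4 (126 against 82.5) and NLRP5 (142 against 98.0) were higher in superstimulated cow 3 than in its partner. Each was above the controls in 2 of 6 superstimulated channels. By limma against the swap error, 0 of the 8 passed as higher and 2 as lower in pair 1. The counts were 2 and 0 in pair 2, and 5 and 0 in pair 3. All genes had 3.25% and 5.83%, 13.3% and 21.2%, and 26.5% and 18.9%. HAS2 was 326 in superstimulated cow 2, against 112 in its partner. PTX3, another cumulus matrix gene, was 388 in superstimulated cow 2, against 582 in non-superstimulated cow 2, and 4720 in superstimulated cow 3, against 348 in non-superstimulated cow 3. The part of these cell types in the IGF2, IGFBP3 and IGFBP5 values was not tested.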

How the data were processed

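Trizol-extracted RNA went through 2 rounds of T7 amplification before Cy3 or Cy5 labelling, per the labels' protocols, and amplification of small inputs can distort levels. Per the file headers, the deposited scanner files give each spot's foreground intensity, its surrounding background and a spot flag (other) in both colours, with nothing subtracted. The authors also deposited log2 values, used as an alternative; how these were normalized is not stated in the labels or headers. They correlated at 0.739 to 0.868 with the scanner ratios (red over green) of the same arrays. Column medians were -0.00433, -0.0115, -0.0348, -0.0110, -0.00625 and -0.00797 for arrays 1 to 6.

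With R 4.3.3 and limma 3.58.1, 8 spots without a name and 42 ignored spots were left out, backgrounds were corrected with normexp (offset 50) and ratios were normalized by loess with control spots at weight 0. The pair means were tested against 0 with lmFit and eBayes. Single pairs, differences between pairs and dye were tested in a 6-array model with pair terms and a dye term. P-values were adjusted by Benjamini-Hochberg over all 31957 tested probes. Intensities per cow came from separate channels after Aquantile. Fits were tested on simulated data. Figures used Python 3.11.15 and matplotlib 3.10.9.

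Symbols came from the platform annotation, which can be old, updated through a RefSeq table of ARS-UCD2.0: of 21790 probes with 1 symbol, 20068 matched a symbol, 1646 a synonym and 76 nothing. None had several symbols, and 22004 probes were unnamed here. All 10 members matched by symbol. On the array 15212 genes were named. The members and lists were chosen with earlier results of these data known. Named pathway genes were, per list, up to 3 with the smallest p and up to 2 with the largest range among those that differed between pairs, and beside IGF2 the 5 genes with the most similar array ratios. Alternatives changed background correction, normalization, filter, pairing, slide, pair and source of values.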

Additional observations from a re-analysis of the deposited data

How the results depend on the processing

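No alternative brought an IGF probe past an adjusted p of 0.05 for the group ratio. Over all probes that count was 8 with 6 arrays taken as independent, without a replicate block, and 2 with the pair as a random block (consensus correlation 0.255); both were 0 in the main analysis, and the paired count for IGF probes stayed at 0 with the block. Across probes, deviations from the group mean correlated at 0.20, 0.05 and 0.30 between same-numbered cows and at -0.28 to 0.25 between the others; same-numbered cows shared arrays, so this does not show that the animals were matched. Leaving out 1 pair in turn gave 0 to 0 group calls, 9451 to 10598 probes that differ between pairs, 2 to 6 IGF probes and 9 to 16 other pathway genes. The deposited values gave 3291 probes, 2 IGF probes and 8 pathway genes that differ between pairs, and 0, 3 and 2 IGF probes in pairs 1, 2 and 3 with 0 for dye. With an offset of 16 the pair 1 count was 0.

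Of 402 single values under other settings, 364 counted as unchanged. The measure was direction and side of the threshold, or for IGFBP5 a distance from the main value within its SD. Group ratios could not move without the filter, with the pair as a random block or with cows unpaired, where only the error changes. Under the dyes of the design text every sign had to turn. The pair 1 ratio of IGF2R was no longer called with an offset of 16 (-0.44) and in the deposited values (-0.67), that of IGFBP4 in pair 3 without background correction (-0.26) and in the deposited values (-0.39), and that of IGF1R in pair 2 in the deposited values (0.67), where its pair 3 ratio turned to -0.0013. Group ratios turned in the deposited values for IGF1 (0.12), IGF2 probe EMBV3_16283 (-0.11), IGFBP2 (0.0673), IGFBP6 (-0.0879), IGF2BP2 (0.0077) and IGF2BP1 (-0.19). They turned on slide 1 alone for EMBV3_16283 (-0.20), IGFBP6 (-0.21), HTRA1 (-0.0855), IGF2BP2 (0.0595), GHR (-0.11) and IGF2BP1 (-0.35), and on slide 2 alone for IGF1 (0.15) and DDIT4 (-0.031).

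Leaving out 1 pair in turn moved means by over 1.5 times, to 1.11 to 2.95 for EMBV3_37311, 0.70 to 2.64 for EMBV3_41040 and 0.15 to 0.92 for IGFBP3. The same held for IGF2R (-0.34 to -0.11), IGFBP2 (-0.09 to -0.02) and IGFBP4 (-0.27 to -0.10). Of the pathway genes, STC1 moved to 0.23 to 1.39, FOXO1 to -2.00 to -0.28 and GAB1 to -1.37 to -0.35. So did IGFBP7 (-1.02 to -0.33), CTSD (-0.89 to -0.26), GRB14 (-1.12 to -0.60) and GRB2 (0.21 to 0.52). TSC2 (-0.33 to -0.15), RHEB (0.54 to 1.30), IGF2BP2 (-0.11 to -0.008) and GHR (0.0043 to 0.0902) moved likewise. Ranges that crossed 0 were -0.0061 to 0.0811 for EMBV3_16283, -0.0254 to 0.0473 for IGFBP6, -0.0170 to 0.14 for PAPPA, -0.24 to 0.63 for HTRA1, -0.0949 to 1.00 for DDIT4 and -0.0058 to 0.0690 for IGF2BP1. The dyes of the design text turn every sign: IGF1 0.0434, EMBV3_16283 -0.0299, EMBV3_37311 -2.02, EMBV3_41040 -1.63, IGF1R -0.35, IGF2R 0.21, IGFBP2 0.0552, IGFBP3 -0.63, IGFBP4 0.19, IGFBP6 -0.0144 and PAPPA -0.076. The cause of these differences was not tested. Signal limits IGF1, IGFBP6, PAPPA and EMBV3_16283, which lie near the controls, and the offset pulls their ratios toward 0.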
